A study of Mus musculus with 16 samples.

Results

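Amino acid transporters of 7 solute carrier families were followed in polysomal and subpolysomal RNA of AML12 cells. The members were all gene names of the array that begin with Slc1a, Slc3a, Slc6a, Slc7a, Slc36a, Slc38a or Slc43a and a number. There were 65 of them among 30214 gene names, with 7 in Slc1, 2 in Slc3, 21 in Slc6, 16 in Slc7, 5 in Slc36, 11 in Slc38 and 3 in Slc43. The name rule also took in 3 opposite-strand genes, Slc36a1os, Slc6a19os and Slc7a6os, which are not carriers. AML12 is a line of mouse hepatocytes that carries a human TGF-alpha transgene, and the labels give male cells. The cells expressed a scramble shRNA or an shRNA that the study's methods direct against eIF6, a factor of ribosome biogenesis and translation, while the labels name the second only shRNA. All cells of both kinds received doxycycline, which induces the shRNA, and insulin for 1 h (given in one place as 100 nM and in another as the same number of mM). Gradient fractions were pooled into a subpolysomal and a polysomal part, and each of the 4 groups had 4 arrays, described as a biological quadruplicate. The methods name 2 antisense sequences against eIF6 for lentiviral vectors, and the labels tell no shRNA sequences, infections or clones apart.

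These families move amino acids and related solutes across the plasma membrane or out of lysosomes. Members of Slc1 and Slc38 carry glutamine and other small neutral amino acids with sodium, and system A carriers of Slc38 are induced when amino acids are scarce. The light chains of Slc7 exchange large neutral or cationic amino acids and reach the membrane bound to a heavy chain of Slc3. Slc43 holds sodium-independent facilitators, most of them of large neutral amino acids, and Slc6 holds sodium- and chloride-dependent carriers of neurotransmitters, creatine, taurine and neutral amino acids. Hepatocytes take up amino acids for protein synthesis, ureagenesis and gluconeogenesis, and insulin stimulates part of this uptake.

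Values are log2 intensities after quantile normalization, so that each one is relative to the other genes of its array. Of the 65 members, 39 (60%) were measured, meaning that some group had 2 or more arrays with a probe well above background, beside 64.1% of all gene names. Well above background is the call of the scanner software for a spot. In Slc1, 5 members were measured, in Slc3 2, in Slc6 8, in Slc7 9, in Slc36 3, in Slc38 9 and in Slc43 3. The measured members included the opposite-strand gene Slc7a6os, and 29 were well above background on all 16 arrays. The 26 members without a value included the arginine carrier Slc7a2 and the light chain Slc7a9, the usual partner of Slc3a1, both present on the array. Slc1a7 lacked a value on 1 subpolysomal array of eIF6 shRNA cells, where n was 3.

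The targeted gene was lower in polysomal RNA of eIF6 shRNA cells, where the log2 difference of Eif6 was -1.05 ± 0.08 (SE, limma adjusted p = 1.45e-07), and in subpolysomal RNA it was 0.02 ± 0.08 (adjusted p = 0.917). All 10 hepatocyte markers looked at were measured, 7 of them on all 16 arrays, and among them Ttr and Tat were higher on polysomes of eIF6 shRNA cells, Ttr alone was higher in subpolysomal RNA, and none was called lower in either fraction. Of 7 markers of fibroblasts or stellate cells (Col1a1, Col1a2, Col3a1, Dcn, Pdgfrb, Acta2 and Des), all 7 were lower on polysomes of eIF6 shRNA cells and 5 were lower in subpolysomal RNA, and none was at 0 on all arrays. Their summed level, as log2, was 17.19 to 17.92 on the polysomal scramble arrays and 14.08 to 14.62 on the polysomal eIF6 shRNA arrays. In subpolysomal RNA it was 16.80 to 16.91 and 15.35 to 15.81, without overlap in either fraction. Of 4 measured macrophage markers, Csf1r was lower in both fractions, and the endothelial markers Cdh5, Stab2 and Lyve1 were not well above background on any array. None of the 4 cholangiocyte markers and neither measured endothelial marker was called by limma (at an unadjusted p under 0.05, 2 cholangiocyte markers on polysomes and 1 in subpolysomal RNA). Replicate 4 of the polysomal scramble arrays lay apart from the other 3 arrays for 6 members (Slc36a1, Slc38a1, Slc38a3, Slc3a2, Slc43a1 and Slc6a8), although its mean correlation with them over all genes, 0.989, was near the 0.991 to 0.992 of the others. Without this array, 13 members instead of 12 were called on polysomes, the added one being Slc3a2. In bulk RNA, fewer cells of a type and less of a transcript per cell cannot be told apart.

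eIF6 shRNA cells were first compared with scramble cells in polysomal RNA, the RNA that is being translated. Of the 39 measured members, 12 (30.8%) were called at an adjusted p under 0.05, compared with 21.8% of all genes tested. Lower on polysomes were 8 members (20.5%, beside 10.7% of all genes), namely Slc7a8, Slc43a1, Slc38a1, Slc43a3, Slc38a4, Slc38a3, Slc38a2 and Slc6a19. Higher were 4 members (10.3%, beside 11.1%), namely Slc3a1, Slc43a2, Slc7a7 and Slc6a8. The members' median log2 difference was -0.07, and that of all genes was 0.02. A called difference of at least 2-fold was seen for 6 of the 39 members in the lower and 1 in the higher direction. Over all 19364 genes tested, the counts were 875 lower and 489 higher. In subpolysomal RNA, 11 members (28.2%, beside 24.2% of all genes) were called, with 8 lower (20.5%, beside 12.3%) and 3 higher (7.69%, beside 11.8%).

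Of the 8 members lower on polysomes, 7 were also lower in subpolysomal RNA. The genes of the whole array called in both fractions were not counted, so this sharing is not read as particular to the carriers. Slc38a2 was called lower on polysomes alone and Slc7a6os in subpolysomal RNA alone, a difference between fractions that did not pass its own test for either gene. Of the higher members, Slc3a1 and Slc7a7 were called in both fractions. Slc43a2 and Slc6a8 were called on polysomes and Slc6a20a in subpolysomal RNA, and for none of these was the difference between the fractions called (limma adjusted p = 0.567, 0.176 and 0.086). By family, the calls on polysomes fell on 4 of 9 Slc38 members, 3 of 3 Slc43 members, 1 of 2 Slc3 members, 2 of 8 Slc6 members and 2 of 9 Slc7 members, while no measured member of Slc1 (5) or Slc36 (3) was called in either fraction. Every called difference in either fraction had the same sign on all 4 slides, which adds no support, since these differences were chosen by their call on the same arrays. With slide as a block, 12 polysomal and 10 subpolysomal differences were called. Scaled to spike-in probes, which moves the median of all genes by -0.47 on polysomes and -0.23 in subpolysomal RNA, 6 of the 8 lower and 0 of the 4 higher members were called on polysomes, and in subpolysomal RNA 2 members, Slc43a1 and Slc43a3, both lower.

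**Figure D1:**
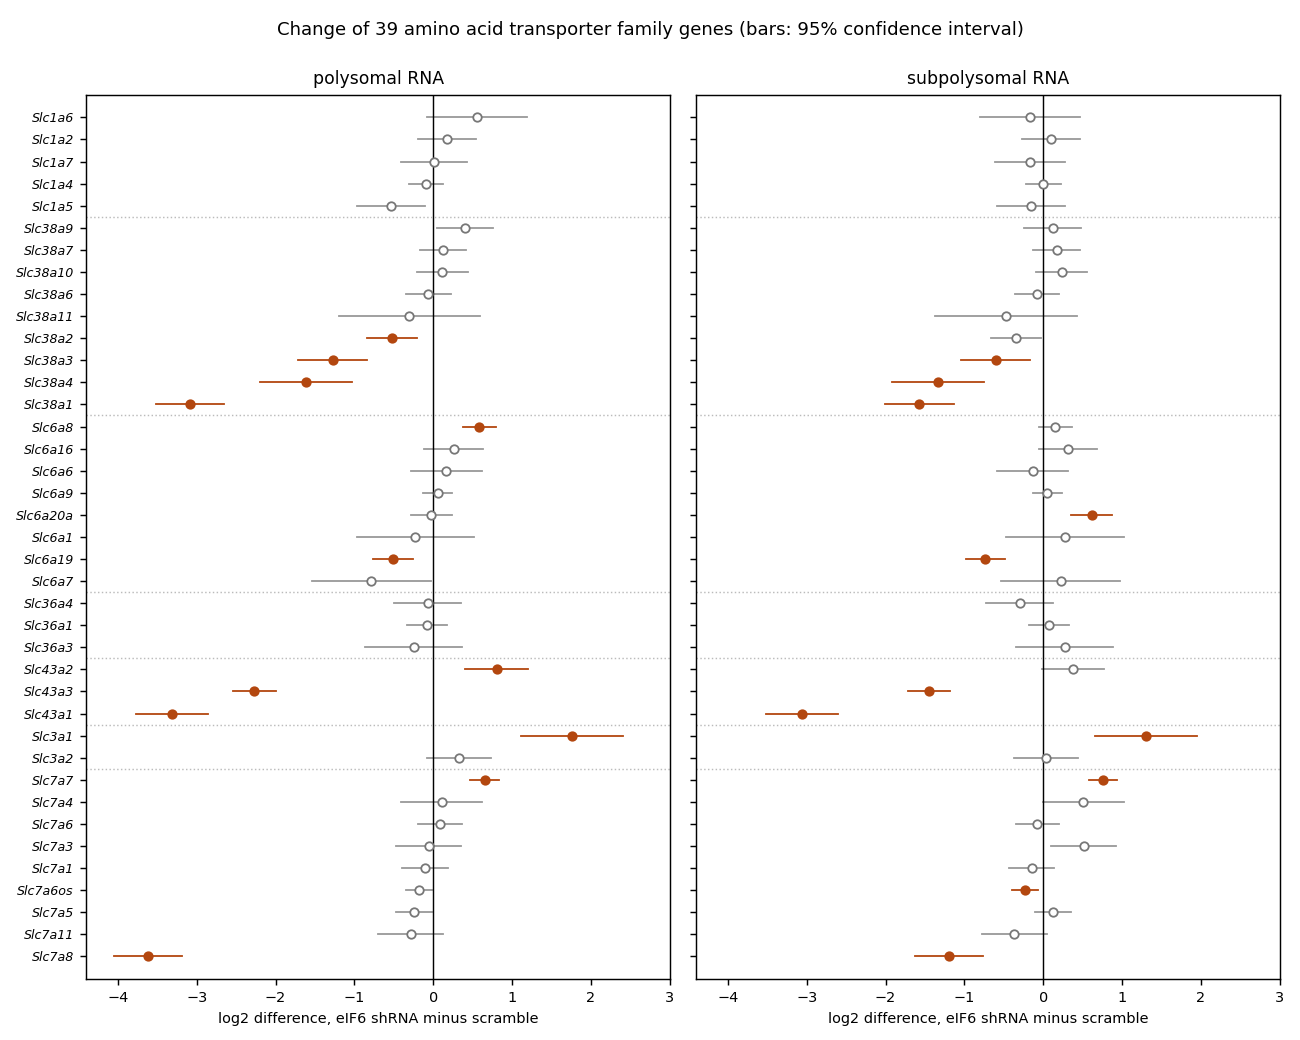
Log2 difference between eIF6 shRNA and scramble cells (x axis) for each of the 39 measured members (y axis, grouped by family) in polysomal RNA (left) and subpolysomal RNA (right). Points are the estimates from 4 arrays per group, lines the 95% confidence intervals, and filled points have an adjusted p under 0.05. The lowest values belong to Slc7a8, Slc43a1, Slc38a1 and Slc43a3, and the polysomal value of Slc7a8 rests on eIF6 shRNA arrays that were not well above background. Scaled to spike-in probes instead, no member was called higher in either fraction, and the lower calls lost were Slc38a2 and Slc6a19 on polysomes and all but Slc43a1 and Slc43a3 in subpolysomal RNA.

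The probes behind the 6 members with the largest differences on polysomes are shown by their first 30 bases, since most of these members were measured by 1 probe and each value stands for that stretch of its transcript. They are given with their strand and the position of the whole probe in mm9, as deposited. For Slc38a1, the brighter of its 2 kept probes is shown.
Slc7a8 (chr14:55341137-55341196, minus strand): tatttcttttggattttttaatgtatggcg
Slc43a1 (chr2:84703578-84703637, plus strand): tgcacacatatatgttacgcacatgcatat
Slc38a1 (chr15:96406793-96406852, minus strand): tggaaacacgatcaacagttgtcttcactt
Slc43a3 (chr2:84797987-84798046, plus strand): tttgatgatccagtatctacaaagactgcc
Slc3a1 (chr17:85463142-85463201, plus strand): tggttctgaattttggagaatcatcaactg
Slc38a4 (chr15:96825482-96825541, minus strand): ctaacctggaagtatccacttgtgtagtta
Slc38a1 and Slc38a4 lie near each other on chromosome 15, with the probe of Slc38a2 between them (chr15:96518491-96518550, minus strand). The probes of Slc43a1 and Slc43a3 also lie near each other, on chromosome 2.

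The sodium-coupled neutral amino acid carriers of Slc38 held the largest group of lower members. Slc38a1, which takes up glutamine and alanine, gave 6.27, 6.31, 6.26 and 6.71 on the 4 polysomal scramble arrays and 3.28, 3.02, 3.09 and 3.81 on the 4 polysomal eIF6 shRNA arrays. All eIF6 shRNA arrays lay below all scramble arrays, and the log2 difference was -3.09 ± 0.20 (SE, limma adjusted p = 3.91e-08). Within single slides, each of which holds 1 array of every group, the difference was -3.69 to -2.46. In subpolysomal RNA the values were 5.42, 5.71, 5.59 and 5.23 in scramble and 3.77, 4.14, 4.31 and 3.44 in eIF6 shRNA cells. There the groups did not overlap either, with a smaller difference of -1.57 ± 0.20 (adjusted p = 4.95e-05). Slc38a1 had 3 probes on the array, and the one left out was not well above background on any array. The values are means of the 2 kept probes, of which the dimmer was not well above background on any array of eIF6 shRNA cells. The brighter one, well above background on all 16 arrays, differed by -2.97 on polysomes (adjusted p = 2.63e-08) and by -1.28 in subpolysomal RNA (adjusted p = 0.000157).

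Slc38a4, a carrier of small neutral amino acids that is abundant in liver, gave 7.12, 7.31, 6.70 and 7.89 on polysomes of scramble cells and 5.22, 5.37, 5.73 and 6.23 in eIF6 shRNA cells. The groups did not overlap, and the difference was -1.62 ± 0.27 (SE, limma adjusted p = 0.000452). In subpolysomal RNA the means were 7.38 ± 0.21 and 6.05 ± 0.44 (SD, n = 4), a difference of -1.33 ± 0.27 (adjusted p = 0.00239). Slc38a3, a liver glutamine carrier, gave 7.40, 7.40, 7.29 and 8.24 on polysomes of scramble cells and 5.94, 6.36, 6.36 and 6.57 in eIF6 shRNA cells. Its difference was -1.27 ± 0.20 (adjusted p = 0.000289), and without replicate 4 of the polysomal scramble arrays it was still called. In subpolysomal RNA its difference was -0.60 ± 0.20 (adjusted p = 0.0445), a call that was lost in 8 of the alternative settings, among them each omission of replicate 1, 2 or 3.

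Slc38a2, the amino acid-regulated carrier of system A, differed less. It gave 12.63, 12.57, 12.35 and 13.10 on polysomes of scramble cells and 11.86, 12.11, 12.04 and 12.52 in eIF6 shRNA cells, where the highest array overlapped the scramble arrays. The polysomal difference was -0.53 ± 0.15 (SE, limma adjusted p = 0.0185), and the call was lost without replicate 1 (adjusted p = 0.161) or replicate 2 (adjusted p = 0.1). In subpolysomal RNA the groups did not overlap, but the difference of -0.35 ± 0.15 was not called (adjusted p = 0.105). The other 5 measured members of the family were not called in either fraction. Among them was Slc38a9, a lysosomal carrier that reports arginine to mTORC1, with 0.40 ± 0.17 on polysomes (adjusted p = 0.111, 95% confidence interval 0.04 to 0.76).

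On polysomes all 7 fibroblast and stellate cell markers were lower in the same arrays in which these carriers were lower. The log2 differences of the markers there ran from -3.53 for Col1a2 to -1.39 for Des, a range that takes in Slc38a1, Slc38a4, Slc43a1 and Slc43a3. Slc7a8 as measured lay below it, and Slc38a3 (-1.27), Slc38a2 (-0.53) and Slc6a19 (-0.51) lay above it. In subpolysomal RNA 5 markers were lower, and Dcn (0.10) and Des (0.01) were not called. The part of the markers in the lower values of Slc38, Slc43, Slc6a19 and Slc7a8 was not tested. The size of the differences of dim members depends on how background is handled. With normexp background correction and an offset of 50, the polysomal difference was -0.78 for Slc7a8, -1.06 for Slc43a1, -1.16 for Slc38a1, -0.92 for Slc38a4 and 0.42 for Slc3a1, all of them still called, and -1.97 for the brighter Slc43a3.

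The Slc43 family moved in both directions. Slc43a1, a facilitator of branched-chain amino acids in liver, gave 6.47, 6.46, 6.48 and 6.63 on polysomes of scramble cells and 3.13, 2.95, 3.34 and 3.38 in eIF6 shRNA cells, where 3 of 4 arrays were well above background. The difference was -3.31 ± 0.21 (SE, limma adjusted p = 3.11e-08), with -3.67 to -3.09 within slides. In subpolysomal RNA it gave 7.05, 6.96, 7.25 and 7.07 in scramble and 4.59, 3.21, 4.25 and 4.04 in eIF6 shRNA cells, a difference of -3.06 ± 0.21 (adjusted p = 1.19e-07). The change in translational efficiency, the polysomal minus the subpolysomal difference, was -0.25 with a 95% confidence interval of -0.89 to 0.40 (adjusted p = 0.807). This depended on the scaling: scaled to the 75th percentile, the differences were -3.61 and -2.74 and the change was called.

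Slc43a3, a facilitator of purine nucleobases rather than amino acids, gave 10.11, 10.30, 9.85 and 10.19 on polysomes of scramble cells and 7.70, 7.79, 7.83 and 8.06 in eIF6 shRNA cells. The polysomal difference was -2.27 ± 0.13 (SE, limma adjusted p = 6.61e-09), and the subpolysomal one was -1.45 ± 0.13 (adjusted p = 9.72e-07). Neither fraction showed any overlap. Slc43a2, a facilitator of branched-chain and aromatic amino acids, was higher instead. It gave 7.23, 7.31, 7.33 and 7.47 on polysomes of scramble cells and 7.80, 7.98, 8.32 and 8.46 in eIF6 shRNA cells, without overlap and with a difference of 0.80 ± 0.19 (adjusted p = 0.00526). This call was lost without replicate 3. In subpolysomal RNA the difference was 0.38 ± 0.19 (adjusted p = 0.161) and the groups overlapped.

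**Figure D2:**
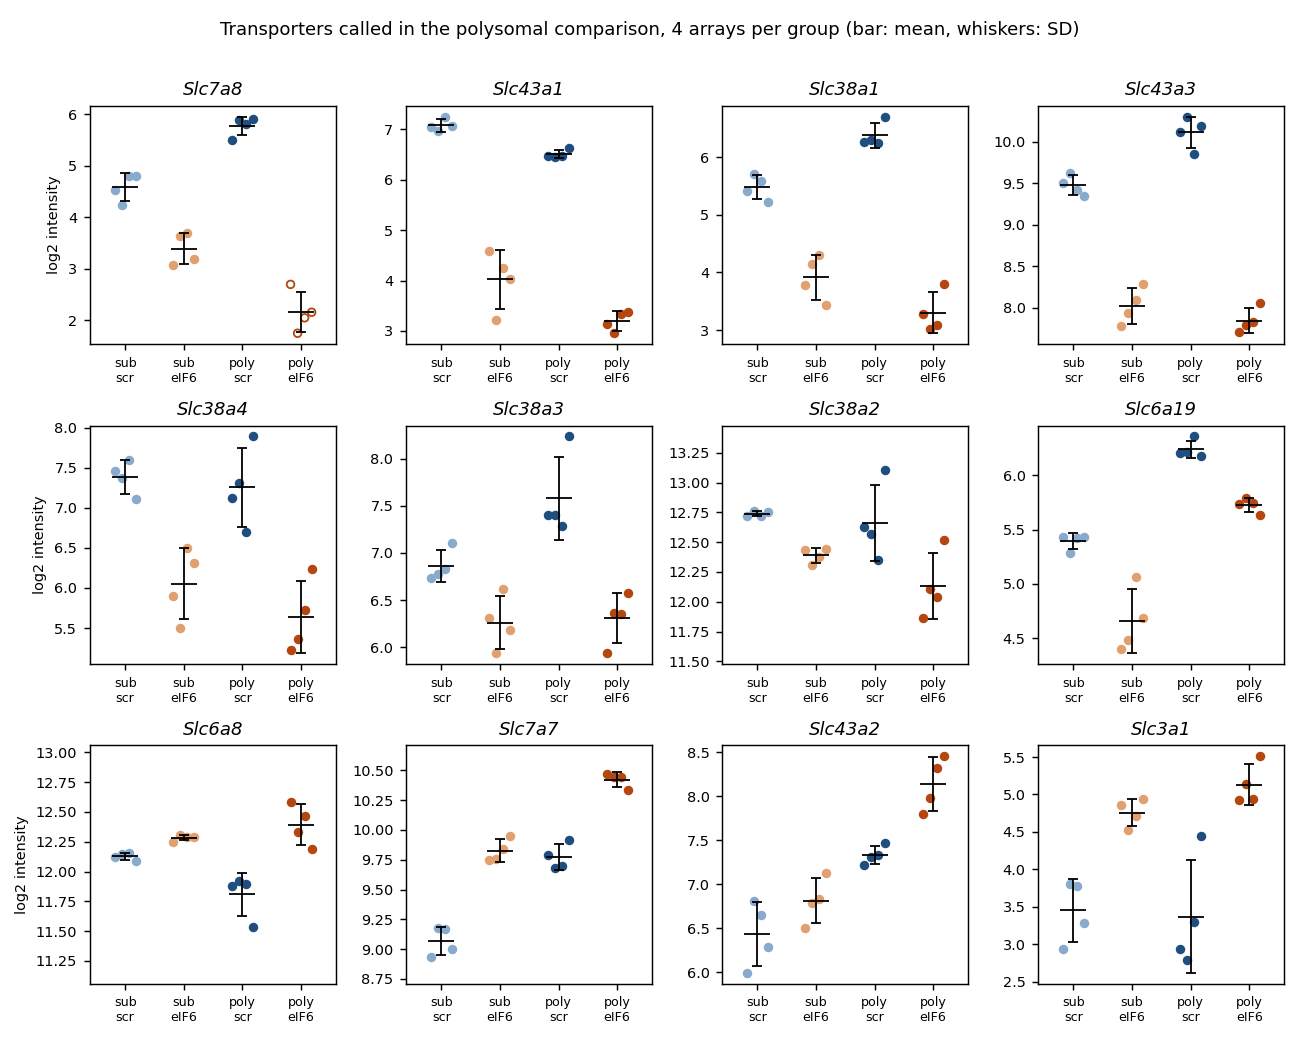
Log2 intensity (y axis) on each array for the 12 members called in polysomal RNA, from the lowest difference (Slc7a8) to the highest (Slc3a1). Points are arrays of subpolysomal (sub) and polysomal (poly) RNA from scramble (scr) and eIF6 shRNA (eIF6) cells, bars are means and whiskers SD (n = 4), and open points mark a group in which no array was well above background. Each panel has its own axis. The polysomal groups overlap for Slc38a2 alone. The members shown were chosen by their call, so the lack of overlap in the others adds no support. Scaled to spike-in probes the 4 higher members, Slc38a2 and Slc6a19 were no longer called.

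The heavy and light chains of the heterodimeric exchangers were compared next. Slc3a1, the heavy chain of the cystine and dibasic amino acid exchanger, gave 2.94, 2.79, 3.30 and 4.45 on polysomes of scramble cells and 4.92, 5.14, 4.94 and 5.51 in eIF6 shRNA cells. The difference was 1.76 ± 0.30 (SE, limma adjusted p = 0.000522), with scramble signals that were well above background on only 3 of 4 arrays. In subpolysomal RNA it gave 2.94, 3.80, 3.78 and 3.29, well above background on 2 of 4 arrays, and 4.86, 4.52, 4.71 and 4.94. That difference was 1.30 ± 0.30 (adjusted p = 0.0055), and the call was lost without replicate 1. Slc3a2, the heavy chain shared by the other light chains, gave 15.34, 15.22, 15.25 and 16.14 on polysomes of scramble cells and 15.49, 15.64, 15.85 and 16.26 in eIF6 shRNA cells. The groups overlapped and the difference was 0.32 ± 0.19 (adjusted p = 0.279). Without replicate 4 of the polysomal scramble arrays it was 0.54 and was called (adjusted p = 0.0138), and scaled to spike-in probes it was -0.22, relative to a shift of all genes of -0.47.

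Slc7a8, a light chain for small and large neutral amino acids, had the lowest polysomal value of all members. It gave 5.50, 5.88, 5.80 and 5.90 on polysomes of scramble cells and 2.69, 1.74, 2.04 and 2.15 in eIF6 shRNA cells, where it was not well above background on any array. Its level was therefore at least 7.32-fold lower, a bound that sets the 4 scramble arrays against the lowest signal called above background on each eIF6 shRNA array. The limma call (adjusted p = 7.47e-09) is of the measured values and does not test this bound. Slc7a8 passed the filter only through the scramble groups, where it was high. In subpolysomal RNA it gave 4.53, 4.23, 4.80 and 4.81 in scramble and 3.07, 3.62, 3.68 and 3.19 in eIF6 shRNA cells, of which 1 array was well above background. Those groups did not overlap, and the measured difference was -1.20 ± 0.20 (adjusted p = 0.000506).

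Slc7a7, the light chain that exports cationic amino acids, moved the other way. It gave 9.79, 9.68, 9.70 and 9.91 on polysomes of scramble cells and 10.47, 10.44, 10.44 and 10.33 in eIF6 shRNA cells, without overlap. The difference was 0.65 ± 0.08 (SE, limma adjusted p = 3.56e-05), and in subpolysomal RNA it was 0.76 ± 0.08 (adjusted p = 1.11e-05), with no overlap there either. Of the 10 hepatocyte markers, 2 were called higher on polysomes (Ttr by 1.15 and Tat by 0.91) and 1 in subpolysomal RNA (Ttr by 1.33). The other 8 were not called on polysomes, with differences of -0.29 (Alb) to 0.62 (Krt8). Among these, Cps1 was well above background on no polysomal array and Apoa1 on no polysomal scramble array. Alb was so on 3 polysomal scramble and 2 polysomal eIF6 shRNA arrays, so for these genes the lack of a call says little. The part of the hepatocyte markers in the higher values of Slc3a1, Slc43a2, Slc7a7 and Slc6a8 was not tested. Of the remaining light chains, none was called in either fraction. Slc7a5, which takes up leucine and other large neutral amino acids, differed by -0.24 ± 0.11 on polysomes (adjusted p = 0.136) and by 0.12 ± 0.11 in subpolysomal RNA (adjusted p = 0.467). Its 2 probes differed in subpolysomal RNA, with -0.15 and 0.40, neither of them called. Slc7a6, a second exporter of cationic amino acids, differed by 0.09 ± 0.13 on polysomes (adjusted p = 0.724, 95% confidence interval -0.19 to 0.36). Slc7a11, the light chain of the cystine and glutamate exchanger, differed by -0.29 ± 0.19 (adjusted p = 0.351, 95% confidence interval -0.70 to 0.12). The free-standing cationic carrier Slc7a1 differed by -0.10 ± 0.13 (adjusted p = 0.672, 95% confidence interval -0.39 to 0.18).

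**Figure D3:**
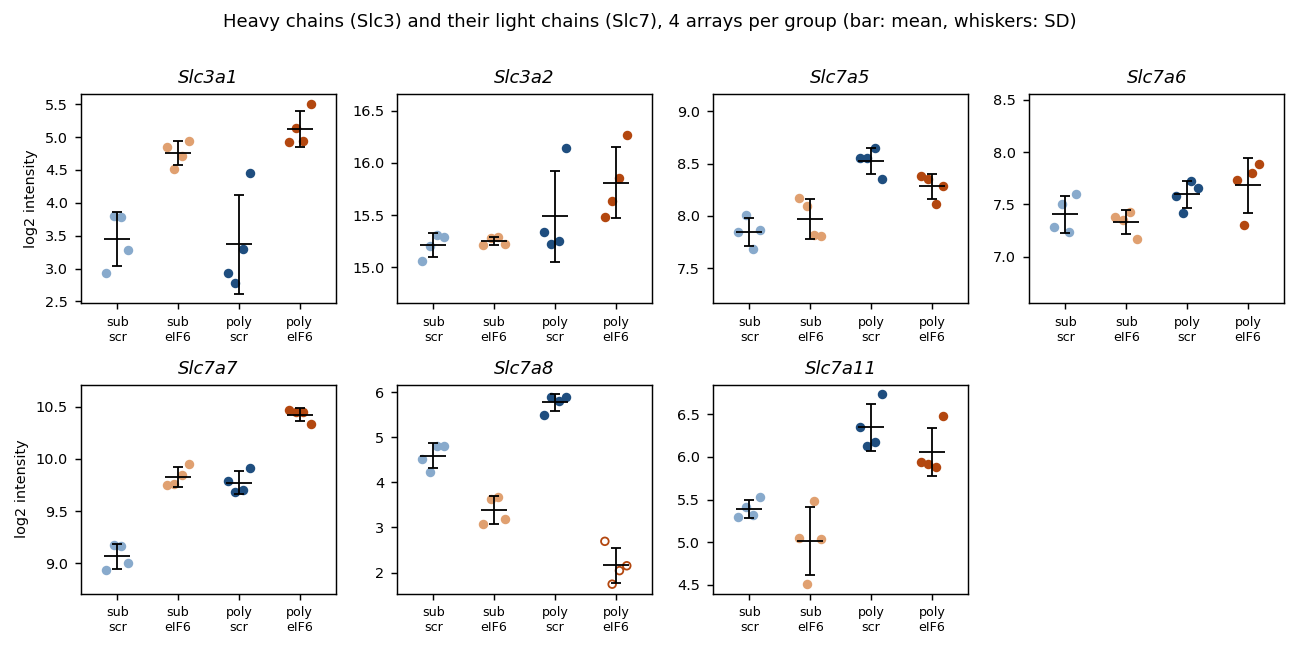
Log2 intensity (y axis) on each array for the heavy chains Slc3a1 and Slc3a2 and the measured light chains Slc7a5, Slc7a6, Slc7a7, Slc7a8 and Slc7a11. Points are arrays of subpolysomal (sub) and polysomal (poly) RNA from scramble (scr) and eIF6 shRNA (eIF6) cells, bars are means and whiskers SD (n = 4), and open points mark a group in which no array was well above background. Slc3a1 and Slc7a7 lie higher and Slc7a8 lower in eIF6 shRNA cells in both fractions, without overlap, and scaled to spike-in probes neither Slc3a1 nor Slc7a7 was called in either fraction, and Slc7a8 was not called in subpolysomal RNA.

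Slc7a6os, which shares its name with Slc7a6 but lies on the other strand and encodes an unrelated protein, was lower in subpolysomal RNA by 0.23 on the log2 scale (SE 0.08, limma adjusted p = 0.039). This was the smallest called difference between the cell lines, and it was not called with slide as a block or without replicate 1, 2 or 3. On polysomes the difference was -0.19 ± 0.08 (adjusted p = 0.108).

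In Slc6, the largest family, 8 of 21 members were measured and 3 were called in at least 1 fraction. Slc6a19, a carrier of neutral amino acids in kidney and intestine, gave 6.20, 6.21, 6.36 and 6.18 on polysomes of scramble cells and 5.73, 5.79, 5.74 and 5.63 in eIF6 shRNA cells. The difference was -0.51 ± 0.12 (SE, limma adjusted p = 0.00477), and in subpolysomal RNA it was -0.74 ± 0.12 (adjusted p = 0.00033), with no overlap in either fraction. Scaled to spike-in probes, Slc6a19 was called in neither fraction (adjusted p = 0.281 and 0.768). Slc6a8, the creatine carrier, gave 11.88, 11.92, 11.89 and 11.54 on polysomes of scramble cells and 12.58, 12.33, 12.47 and 12.18 in eIF6 shRNA cells, a difference of 0.58 ± 0.10 (adjusted p = 0.000443). Its subpolysomal values, 12.09 to 12.15 in scramble and 12.25 to 12.30 in eIF6 shRNA cells, did not overlap, but their difference of 0.16 ± 0.10 was not called (adjusted p = 0.284).

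Slc6a20a, a carrier of proline and other imino acids, was called in subpolysomal RNA, where it gave 6.52, 6.40, 6.35 and 6.29 in scramble and 7.24, 6.90, 6.81 and 7.08 in eIF6 shRNA cells. The difference was 0.62 ± 0.12 (SE, limma adjusted p = 0.00175). On polysomes its groups overlapped and the difference was -0.03 ± 0.12 (adjusted p = 0.914), which turned positive without replicate 1 or 4. Its change in translational efficiency, -0.65 ± 0.17, had the same sign on all 4 slides and missed the threshold (adjusted p = 0.086).

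No Slc1 or Slc36 member was called, and at an unadjusted limma p under 0.05 only 1 of these 8, Slc1a5 on polysomes, differed in either fraction. Slc1a5, the glutamine carrier of proliferating cells, gave 9.88, 9.76, 9.55 and 10.55 on polysomes of scramble cells and 9.00, 9.33, 9.31 and 9.96 in eIF6 shRNA cells. In both groups replicate 4 was the highest, the groups overlapped, and the difference was -0.53 ± 0.20 (SE, limma adjusted p = 0.0762), lower on 3 of 4 slides. Without replicate 4 of every group it was -0.52 and was called (adjusted p = 0.00649), the only one of 16 alternative settings in which it was. In subpolysomal RNA it was -0.16 ± 0.20 (adjusted p = 0.625). Slc1a4, a related carrier of alanine, serine and cysteine, differed by -0.09 ± 0.10 on polysomes (adjusted p = 0.603, 95% confidence interval -0.31 to 0.12). Slc36a1, a proton-coupled carrier of lysosomes and plasma membrane, differed by -0.08 ± 0.12 (adjusted p = 0.732, 95% confidence interval -0.34 to 0.18).

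The change in translational efficiency asks whether the polysomal difference exceeded the subpolysomal one. It was called for 3 of 39 members (7.69%, beside 1.51% of all genes tested), lower for all 3 (beside 1.11%) and higher for 0 (beside 0.403%). Of these, Slc7a8 passed the filter only through the scramble groups, where it was high. Its call is counted, but the share is not read as a result about the members. At an unadjusted limma p under 0.05, 6 members were lower and 1 was higher. All genes were not counted at that threshold, so these counts have no share to set them against. Slc38a1 had the change -1.51 ± 0.29 (SE, limma adjusted p = 0.0139), with -2.41 to -0.53 over the 4 slides. Its placement, relative to the average gene, was on the polysomal side in scramble cells (0.90 ± 0.20 for polysomal minus subpolysomal signal) and on the lighter side in eIF6 shRNA cells (-0.62 ± 0.20, adjusted p = 0.0167). The first call was lost when scaled to the 75th percentile. The second was lost when scaled to spike-in probes, with no filter, in the deposited log2 table and without replicate 1, 2 or 3. Slc43a3 had the change -0.82 ± 0.18 (adjusted p = 0.0325), with -1.25 to -0.20 over the slides. Its placement went from 0.64 ± 0.13 in scramble cells to -0.18 ± 0.13 in eIF6 shRNA cells, of which the second was not called (limma adjusted p = 0.232).

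Measured by its brighter probe alone, the change of Slc38a1 was -1.68 (adjusted p = 0.00496 over probes). Slc38a1 was no longer called without replicate 1 (adjusted p = 0.174), replicate 2 (0.139) or replicate 3 (0.169), and Slc43a3 was no longer called without any 1 of the 4 replicates (0.186, 0.181, 0.186 and 0.0707) or without replicate 4 of the polysomal scramble arrays alone. Scaled to spike-in probes the adjusted p was 0.403 for Slc38a1 and 1 for Slc43a3. With no filter on dim probes the adjusted p was 0.0781 for Slc38a1 and 0.0577 for Slc43a3. Slc7a8 was the third call, but 0 of 4 polysomal and 1 of 4 subpolysomal arrays of eIF6 shRNA cells were well above background, so that no size is given here. In scramble cells it was higher on polysomes by 1.18 ± 0.20 (adjusted p = 0.000136). Scaled to the 75th percentile, this difference was 0.54 and was not called. For the other members, a change passed in neither direction. Their 95% confidence intervals remained wide, such as -0.29 to 0.86 for Slc3a2 and -0.69 to -0.04 for Slc7a5.

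Placement on the gradient was compared within each cell line. In scramble cells, 21 of 39 members (53.8%) differed between the fractions, beside 60.1% of all genes, with 8 lower on polysomes (beside 28.4%) and 13 higher (beside 31.7%). In eIF6 shRNA cells, 18 members were called, 9 lower (beside 28.7%) and 9 higher (beside 32.1%), beside 60.8% of all genes. These directions are relative to the average gene and depend on the scaling. Scaled to the 75th percentile, which moves the median of all genes by -0.34 and -0.37, the splits were 12 lower and 9 higher in scramble cells and 17 lower and 6 higher in eIF6 shRNA cells. Scaled to spike-in probes, which moves it by 1.52 and 1.30, 32 members in scramble and 23 in eIF6 shRNA cells were called, all of them higher on polysomes.

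At the polysomal end in scramble cells were Slc7a8, Slc7a11, Slc7a4 and Slc43a2. Slc7a11 was higher on polysomes by 0.96 ± 0.19 in scramble cells (SE, limma adjusted p = 0.000548) and by 1.04 ± 0.19 in eIF6 shRNA cells (adjusted p = 0.000286). Scaled to the 75th percentile, its difference in eIF6 shRNA cells was 0.34 and was not called. Slc7a4, an orphan member of the cationic branch, was higher by 0.95 ± 0.24 and 0.55 ± 0.24, of which only the first was called. Slc43a2 was higher by 0.90 ± 0.19 and 1.32 ± 0.19, both called. At the other end, Slc7a6os was lower on polysomes by 0.74 in scramble and 0.69 in eIF6 shRNA cells, and Slc1a5 by 0.67 and 1.05. Slc38a10, which is found at intracellular membranes, was lower by 0.63 and 0.75, and Slc43a1 by 0.57 and 0.82. All 4 of these were called in both cell lines. The call of Slc43a1 was lost without replicate 1, 3 or 4, with no filter and in the deposited log2 table in scramble cells, and without replicate 1, with normexp, with no filter and scaled to spike-in probes in eIF6 shRNA cells. That of Slc1a5 was lost in scramble cells without replicate 2 or 3. Scaled to spike-in probes all 4 turned to the polysomal side in scramble cells, where the shift of all genes was 1.52.

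**Figure D4:**
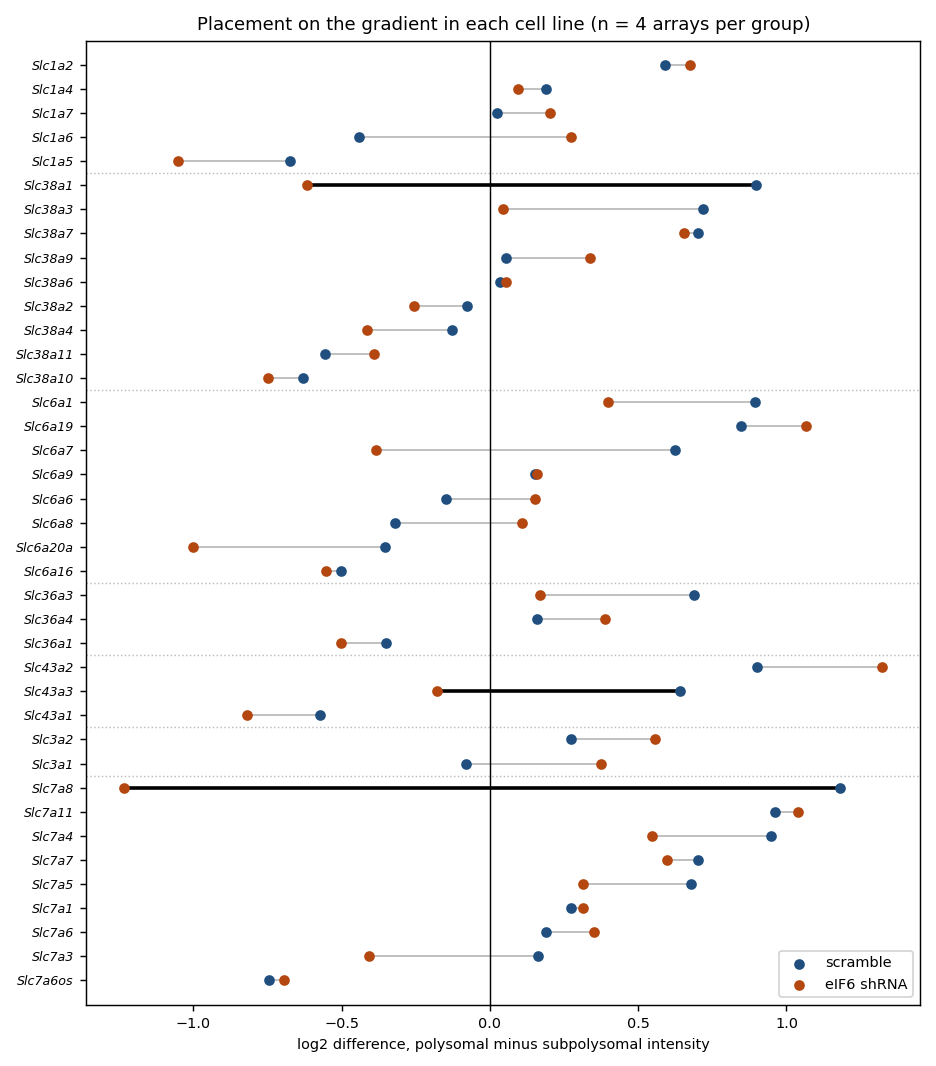
Log2 difference between polysomal and subpolysomal intensity (x axis) in scramble and eIF6 shRNA cells for each measured member (y axis, grouped by family), as means of 4 arrays per group. Black lines mark the 3 members whose change in translational efficiency was called (Slc38a1, Slc43a3 and Slc7a8), for which the eIF6 shRNA point lies to the left of 0 and the scramble point to the right. Zero is the average gene of the array, so scaling to spike-in probes moves the points to the right, and the eIF6 shRNA point of Slc7a8 rests on dim signals. That of Slc43a3 was not called as different from 0. That of Slc38a1 averages in a probe not well above background on any eIF6 shRNA array.

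Genes that regulate or accompany these carriers were counted in the same fit. Of 24 measured amino acid response genes (ATF4, its targets and regulators), 3 were lower and 2 higher on polysomes and 3 were lower and 4 higher in subpolysomal RNA, with medians of -0.09 and 0.00094. The calls were 20.8% of these genes on polysomes, beside 21.8% of all genes tested, and 29.2% in subpolysomal RNA, beside 24.2%. Atf3, a stress-induced transcription factor, was higher on polysomes by 0.67 ± 0.12 (SE, limma adjusted p = 0.000912) and Vldlr, a lipoprotein receptor, by 0.48 ± 0.08 (adjusted p = 0.000511). Mthfd2, a mitochondrial enzyme of folate metabolism, was lower by 0.58 ± 0.10 (adjusted p = 0.000531). Of 29 measured genes of amino acid sensing by mTORC1, 2 were lower and 4 higher on polysomes, and 2 were lower and 2 higher in subpolysomal RNA, which is 20.7% and 13.8% of them. The 4 higher ones include Rragd, a Rag GTPase. It was well above background on the 4 polysomal arrays of eIF6 shRNA cells and on no other array. Rragd was thus measured only through the group in which it was high, so its calls are counted but not read as a result. Sesn3, a sestrin, was higher by 0.52 ± 0.16 (adjusted p = 0.0284) and Fnip1, a folliculin partner, by 0.45 ± 0.11 (adjusted p = 0.0078).

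Of 8 measured carriers of amino acids or peptides outside the 7 families, 3 were higher and 0 lower on polysomes, and 3 were higher and 1 lower in subpolysomal RNA. The higher calls were 37.5% of these few genes in each fraction, beside 11.1% and 11.8% of all genes. Ctns, the lysosomal cystine exporter, was higher on polysomes by 0.81 ± 0.11 (SE, limma adjusted p = 4.09e-05), Slc16a10, a carrier of aromatic amino acids, by 1.21 ± 0.37 (adjusted p = 0.0286), and Slc15a4, a lysosomal histidine and peptide carrier, by 0.36 ± 0.09 (adjusted p = 0.00742). In the change in translational efficiency, 0 of the 24 response genes, 1 of the 29 sensing genes and 0 of the 8 other carriers were called by limma. The 1 call was Rragd, which was measured only through the group in which it was high. At an unadjusted limma p under 0.05 the counts were 5, 6 and 1, and all genes were not counted at that threshold.

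Several amino acid carriers are known to be induced through an amino acid response element, and so the promoter windows of the members were searched for TGATGNAA on both strands. The windows run from 250 bases before to 50 bases after the annotated start (RefSeq, GRCm38.p6), and 1304 of 32851 windows (3.97%) hold the motif. Counted by gene, 1219 of 27025 genes (4.51%) hold it in at least 1 of their windows. Of 47 members with a window, measured or not, 3 hold it in at least 1 window, namely Slc1a4, Slc7a7 and Slc7a11. All 3 are among the 28 measured members with a window (10.7%). That share was not counted for all measured genes, so it has none to be set against. The sites are shown with the motif, or its reverse complement, in capitals, 5′ to 3′ on the gene's strand, which is the minus strand for all 3 genes.
Slc1a4 (chr11:20332699-20332728): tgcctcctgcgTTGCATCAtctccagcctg
Slc7a7 (chr14:54417927-54417956): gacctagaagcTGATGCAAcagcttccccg
Slc7a7 (chr14:54418067-54418096): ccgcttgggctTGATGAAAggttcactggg
Slc7a11 (chr3:50443661-50443690): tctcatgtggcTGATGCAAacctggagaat
Slc7a11 (chr3:50443642-50443671): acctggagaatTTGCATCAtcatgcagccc
Of these 3 members, Slc7a7 was called higher in both fractions, and Slc1a4 and Slc7a11 were called in neither. In Slc7a11 the windows of both sites overlap and the motifs face each other. The motif is a match of letters and was not tested as a binding site.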

How the data were processed

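RNA was hybridized to one-colour Agilent arrays, 16 in all on 4 slides. The authors deposited the scanner software's output, a background-subtracted intensity per spot, left unnormalized. A second deposited table holds log2 values that the authors quantile normalized, and the correlation of each array with its own log2 intensities was 0.994 to 1.000. The labels name Feature Extraction 10.7.7.1 and the file headers 10.7.3.1.

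Spots marked as outliers were left out, repeated probes averaged, and a probe kept when any group had 2 or more arrays where it was well above background. Quantile normalization was applied to log2 intensities of the kept 25259 probes, and those of a gene name were averaged. Linear models of 4 group means were fitted with limma 3.58.1 in R 4.3.3 over 19364 genes, with Benjamini-Hochberg adjustment over all of them and a threshold of 0.05. A fold change set to a bound used the lowest signal well above background on each array. There were no saturated spots, and precision is limited by how many arrays there were. The p-values measure the spread between these samples. All 65 members matched a RefSeq symbol.

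Members, gene lists and markers were chosen with earlier results of these data known. Named are members called in the first 3 comparisons that 1 group had well above background on each of its arrays, a set of well-known carriers, and for placement the 4 highest and 4 lowest in scramble cells. Of each other list, at most the 3 called genes with the largest polysomal difference are named. Alternatives were 2 other scalings, normexp, other filters, the brightest probe, the deposited log2 table, each fraction normalized on its own, blocks for slide and replicate, and omission of each replicate. Omission of 1 scramble array, of opposite-strand genes and of probes not well above background on all 16 arrays was chosen after seeing the data. The procedure was tested on simulated data.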

Additional observations from a re-analysis of the deposited data

Results flagged for a closer look

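For 9 of 100 groups of 4 arrays checked, 1 array lay apart from the other 3 by Dixon's test, which chance alone gives for about 1 group in 20. Of these, 6 were replicate 4 of the polysomal scramble arrays. There, Slc36a1 gave 6.52 (others 6.75 to 6.76), Slc38a1 6.71 (6.26 to 6.31), Slc38a3 8.24 (7.29 to 7.40), Slc3a2 16.14 (15.22 to 15.34), Slc43a1 6.63 (6.46 to 6.48) and Slc6a8 11.54 (11.88 to 11.92). Replicate 4 of the polysomal eIF6 shRNA arrays gave 6.48 for Slc7a11 (5.88 to 5.95) and 10.33 for Slc7a7 (10.44 to 10.47). Replicate 2 of the subpolysomal scramble arrays gave 5.29 for Slc6a19 (5.42 to 5.44).

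The polysomal and the subpolysomal difference between the cell lines were unlike by limma's interaction test for 3 members. The change in translational efficiency was -1.51 for Slc38a1, -0.82 for Slc43a3 and, as measured on signals not well above background on polysomes of eIF6 shRNA cells, -2.41 for Slc7a8.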

How the results depend on the processing

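Scaling moved counts of calls and directions. Scaled to 7 spike-in probes, which moves the median of all genes by -0.47 on polysomes, -0.23 in subpolysomal RNA and -0.22 in the change in translational efficiency, 6 members were called on polysomes, 2 in subpolysomal RNA, 1 in translational efficiency and 32 in the placement of scramble cells. Under that scaling the polysomal difference turned to -0.35 for Slc38a10, -0.12 for Slc38a9, -0.22 for Slc3a2, -0.36 for Slc7a4 and -0.38 for Slc7a6. Placement turned to 1.15 (Slc1a5), 0.99 (Slc38a10), 0.91 (Slc43a1) and 1.11 (Slc7a6os) in scramble cells and to 0.53 (Slc1a5), 0.71 (Slc38a10) and 0.93 (Slc7a6os) in eIF6 shRNA cells. Without a filter on dim probes, 1 member was called in translational efficiency. The cause was not tested.

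Leaving out a replicate gave 11 to 14 calls on polysomes, 8 to 14 in subpolysomal RNA, 1 to 2 in translational efficiency, 16 to 19 in the placement of scramble cells and 13 to 20 in that of eIF6 shRNA cells. Polysomal differences near 0 changed sign. They ranged from -0.11 to 0.049 for Slc6a20a, -0.14 to 0.00065 for Slc36a1 and -0.095 to 0.20 for Slc7a4. Without replicate 4 of the polysomal scramble arrays alone, the difference was 0.061 for Slc6a20a and 0.37 for Slc7a4. That omission was chosen after seeing the data. Between the 2 polysomal groups, replicates 1 and 4 deviated together (correlations of 0.118 and 0.412) and replicates 2 and 3 did not (-0.0387 and 0.0266). In the other pairs of groups the correlations were -0.157 to 0.0597, so the numbers were not taken to pair the samples. With the replicate number as a block, 13 members were called on polysomes, 11 in subpolysomal RNA, 3 in translational efficiency, 21 in the placement of scramble cells and 20 in that of eIF6 shRNA cells. Over all named results and alternatives, 563 called values kept their direction and call, 58 lost the call and 7 changed direction. Dim signals limit the sizes of Slc7a8, Slc3a1 and the second Slc38a1 probe.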
